A study of Mus musculus with 9 samples.

Results

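Folate-dependent one-carbon metabolism was followed through development of the mouse central nervous system (CNS) in 8 genes: Mthfd1, Mthfd1l, Mthfd2, Shmt1, Shmt2, Tyms, Slc19a1 and Slc25a32. They were picked by name, through the Ensembl identifiers that GENCODE assigns to these symbols in the mouse mm10 assembly, and all 8 had a row among the 45706 genes of the raw count table. Of the 8, 6 code for enzymes and 2, Slc19a1 and Slc25a32, code for folate transporters. The series holds 9 libraries of untreated CNS tissue from C57BL6/J mice, 3 at each of 3 ages. At embryonic day 9.5 (E9.5) the tissue was the head, severed caudal to the fourth ventricle and trimmed of surplus tissue outside the neuroectoderm. At E14.5 it was the brain without its meninges, and at postnatal day 60 (P60) it was the adult CNS, taken after the blood had been flushed out with PBS through the heart. Age and dissection thus differ together, and their parts in a difference between stages cannot be told apart. Tissue was frozen at once, and full-length cDNA was made from total RNA with a low-input SMARTer kit. Sex and pooling of embryos are not stated in the sources used here, and nothing says that libraries of a stage came from separate animals, which limits what the p-values measure to the spread between libraries, technical or not.

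Folate in its reduced form carries single carbon units that cells take mostly from serine. A mitochondrial route (Shmt2, Mthfd2 and Mthfd1l in turn) frees the unit from serine and exports it as formate, and a cytosolic route (Mthfd1, Shmt1) puts it back onto folate, where it serves the synthesis of purines, of thymidylate for DNA and of methionine. The neural tube is known for its need of this pathway, since lack of folate, or loss of some of these enzymes in mice, impairs its closure.

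Total counts ran from 30481975 to 35619093 per library. Levels are given in CPM (counts of a gene scaled so that every library has the same total), with mean ± SD over n = 3 libraries. Differences between stages are log2 fold changes ± SE from 1 edgeR quasi-likelihood fit of all 9 libraries, scaled by TMM, and a gene is said to have risen or fallen where its Benjamini-Hochberg adjusted p over 17971 genes was under 0.05. Markers of the labelled tissue were present: the summed level of 6 neuronal markers was 181 to 203 CPM at E9.5, 4077 to 4509 at E14.5 and 5415 to 6572 at P60, and that of 6 neural progenitor markers was 856 to 1008, 1277 to 1651 and 127 to 153 CPM. The neuronal list was split between E14.5 and P60. Snap25 (109 and 3017 CPM), Syt1, Slc17a7 and Rbfox3 were higher at P60, while Tubb3 (2795 and 602 CPM) and Map2 (1138 and 613 CPM) were lower. The higher progenitor sum at E14.5 lay in Fabp7 (38.9 CPM at E9.5, 546 at E14.5), while Sox1, Sox2, Pax6, Nes and Hes5 were not called in that step. The sum of 6 oligodendrocyte markers was 59.5 to 62.8 CPM at E9.5, 65.3 to 94 at E14.5 and 13072 to 15219 at P60, and that of 6 microglia markers was 20 to 22.1, 52.3 to 60.9 and 287 to 333 CPM. Most of the microglia sum at E9.5 was Tmem119, which was at 18.8, 3.88 and 28.8 CPM. Cx3cr1, P2ry12, Csf1r, C1qa and Aif1 were each low at E9.5 and higher at each later stage. Markers of cells outside the neural tissue differed between stages as well. The sum of 7 erythroid markers was 4326 to 5794 CPM at E9.5, 395 to 725 at E14.5 and 5.26 to 17.5 at P60, with no marker at 0 in all libraries of a stage. Hba-a1 went the other way from E9.5 to E14.5 (128 and 273 CPM). The sum of 7 mesenchyme and neural crest markers was 598 to 777, 335 to 722 and 42.8 to 64.3 CPM (Foxd3 at 0 in all P60 libraries), and that of 6 surface ectoderm markers was 194 to 294, 13.3 to 15.6 and 6.65 to 13 CPM. Col1a1 of the mesenchyme list was higher at E14.5 (181 CPM, with libraries from 94 to 308) than at E9.5 (66.5 CPM). The first E9.5 library stood apart with 350 CPM of 6 muscle and heart markers, against 6.4 and 6.3 CPM in the other E9.5 libraries. Without that library, 8 of the 8 genes were still called lower at E14.5 than at E9.5, and 8 of 8 lower at P60 than at E9.5. What these cells contribute to the values below was not tested, and in bulk tissue fewer cells of a type and less RNA per cell cannot be told apart.

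The 8 genes were highest at E9.5. Between E9.5 and E14.5 all 8 fell, with a median log2 change of -1.86 against 0.03 over all genes tested, where 64.6% of all genes were called in either direction, 30.7% lower and 34% higher. Between E14.5 and P60, 5 fell further (Shmt1, Shmt2, Tyms, Mthfd2 and Slc19a1), 1 rose (Mthfd1l) and 2 were not called (Mthfd1 and Slc25a32). The median was -0.52 against -0.06 over all genes, with 76.1% of all genes called, 39.4% lower and 36.7% higher. Between E9.5 and P60 all 8 fell, with a median of -2.69 against 0.05 over all genes, where 82.6% of genes were called, 40.6% lower and 42% higher. The 3 comparisons share libraries and are not independent of each other. The sum of the 8 genes was 864, 872 and 839 CPM in the E9.5 libraries, 274, 241 and 247 CPM at E14.5 and 126, 140 and 129 CPM at P60, so the stages did not overlap.

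**Figure D1:**
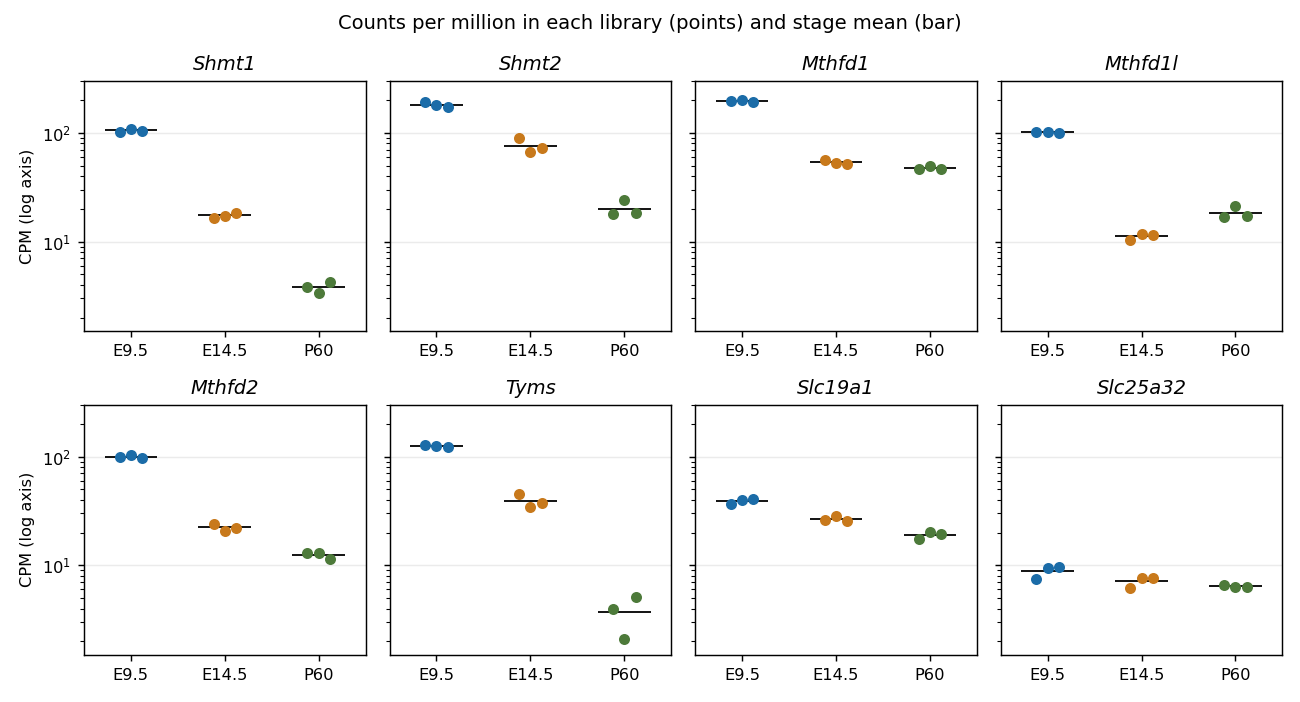
CPM of each of the 8 genes (vertical axis, 1 panel per gene) in every library of E9.5, E14.5 and P60 (points), with the stage mean as a bar. Tyms and Shmt1 fall at both steps, Mthfd1 falls once and lies between 46.5 and 55.9 CPM in all later libraries, Mthfd1l is lowest at E14.5, and the E14.5 libraries of Slc25a32 overlap those of both other stages.

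RefSeq promoter windows on GRCm38.p6 were at hand for 7 of the 8 genes, all but Slc25a32. They are shown because all 7 of these genes fell in the first step, as did 30.7% of all genes tested. The 250 bases before the start were searched on both strands for 6 short motifs: GGGCGG (GC box), CCAAT, the NRF1 letters (GCGC, then any 2 bases, then GCGC), a CRE core (TGACGT), the Atf4 letters (TGATG, then any base, then AA), and the E2F letters (TTCCCGC, or the same with its middle letters CCC replaced by GGC, CGC or GCC). Capitals mark the matches in the bases just before the start, each printed 5′ to 3′ on the strand of the gene: Shmt2 at chr10:127522445-127522544 (minus strand), Shmt1 at chr11:60811266-60811365 (minus), Mthfd2 at chr6:83317607-83317704 (minus), Mthfd1l at chr10:3972975-3973074 (plus) and Tyms at chr5:30073626-30073725 (minus).
Shmt2: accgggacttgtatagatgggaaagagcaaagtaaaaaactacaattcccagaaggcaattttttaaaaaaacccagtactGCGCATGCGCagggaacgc
Shmt1: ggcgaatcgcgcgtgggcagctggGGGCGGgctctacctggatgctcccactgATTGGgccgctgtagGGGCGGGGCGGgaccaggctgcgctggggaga
Mthfd2: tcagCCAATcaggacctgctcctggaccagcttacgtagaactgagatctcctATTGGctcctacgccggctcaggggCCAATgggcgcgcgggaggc
Mthfd1l: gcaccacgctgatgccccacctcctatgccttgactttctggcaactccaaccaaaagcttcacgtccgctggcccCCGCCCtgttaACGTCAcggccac
Tyms: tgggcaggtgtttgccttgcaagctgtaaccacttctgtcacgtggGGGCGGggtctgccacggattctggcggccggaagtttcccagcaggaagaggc
Shmt2, which codes for the mitochondrial enzyme, held the NRF1 letters 19 to 10 bases before its start, and 4.98% of 32851 RefSeq windows of this length held them. Mthfd2 held the CCAAT letters at 3 places (33.8% of all windows held them). Its window lies inside the GENCODE span of the gene, which starts further upstream, at 83325908 on the minus strand. Mthfd1l held the CRE core 13 to 8 bases before its start (6.47% of all windows) and a GC box. Shmt1 held 1 CCAAT match and 4 GC boxes, of which the last pair share 1 base, and Tyms held 1 GC box (32.7% of all windows). Slc19a1 had 2 windows, the first with 2 GC boxes and the second with no match, and neither is printed. The Shmt1 and Slc19a1 windows also lie inside the GENCODE spans of their genes. E2F letters were found in the Mthfd1 window, 53 to 47 bases before its start, and in no other window of these genes (7.89% of all windows), and the Atf4 letters were found in none of them (3.45% of all windows). The Mthfd1 window also held 1 CCAAT match and 1 GC box. GENCODE has all 250 bases of that window as exon of another gene, so it is not printed. A match is only a run of letters, and no binding was measured.

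Shmt1 and Shmt2 split serine into glycine and a carbon unit, Shmt1 in the cytosol and nucleus and Shmt2 in mitochondria. Shmt1 (ENSMUSG00000020534; GRCm38 chromosome 11, 60788104 to 60811718, minus strand) stood at 103, 109 and 105 CPM at E9.5, at 16.5, 17.3 and 18.5 CPM at E14.5 and at 3.84, 3.39 and 4.27 CPM at P60. The stages were far apart and did not overlap. Shmt1 fell by 2.69 ± 0.13 on the log2 scale from E9.5 to E14.5 (adjusted p = 4.8e-08) and by a further 2.05 ± 0.14 to P60 (adjusted p = 2.5e-07), so that P60 kept 3.62% of the E9.5 level. The mean over libraries was 106 ± 3.22, 17.5 ± 0.993 and 3.83 ± 0.437 CPM. Its exons share 184 bases (4.74% of their length) with exons of Smcr8 on the opposite strand, a gene at 53.6, 43.7 and 28.3 CPM. The sources used here do not say whether the authors counted by strand, and without strand the reads of this overlap cannot be assigned to either gene.

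Shmt2 (ENSMUSG00000025403; chromosome 10, 127517123 to 127522444, minus strand) stood at 191, 182 and 172 CPM at E9.5, at 89.9, 67.3 and 72.5 CPM at E14.5 and at 17.9, 24.1 and 18.2 CPM at P60. Its stages did not overlap either, and the first E14.5 library was the highest of its stage. Shmt2 fell by 1.34 ± 0.17 (log2, adjusted p = 4.8e-05) in the first step and by 1.80 ± 0.17 (adjusted p = 4.2e-06) in the second, and P60 kept 11% of the E9.5 level. Its exons share only 32 bases with Ndufa4l2 on the opposite strand. In the first step the cytosolic gene thus fell by the larger estimate, and the ratio of the pair is tested below.

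Mthfd1, Mthfd2 and Mthfd1l interconvert the carbon units carried by folate. Mthfd2 is the mitochondrial dehydrogenase and cyclohydrolase, Mthfd1l the mitochondrial enzyme that releases formate, and Mthfd1 the cytosolic enzyme with all 3 activities. Mthfd1l (ENSMUSG00000040675; chromosome 10, 3973118 to 4167081, plus strand) was at 103, 103 and 99.5 CPM at E9.5, at 10.4, 11.7 and 11.4 CPM at E14.5 and at 16.9, 21.3 and 17.3 CPM at P60. E14.5 was the lowest stage, and every P60 library lay above every E14.5 library and below every E9.5 library. Mthfd1l fell by 3.28 ± 0.14 (log2, adjusted p = 2.3e-08) from E9.5 to E14.5, which is 9.72-fold, and then rose by 0.86 ± 0.13 (1.82-fold, adjusted p = 0.00014). From E9.5 to P60 it fell by 2.42 ± 0.14 (adjusted p = 3e-08). Over the 17 alternative analyses the rise ranged from 0.73 to 1.02 and passed the threshold each time.

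Mthfd2 (ENSMUSG00000005667; chromosome 6, 83305691 to 83325908, minus strand) was at 99.1, 103 and 97.2 CPM at E9.5, at 23.8, 20.9 and 22.2 CPM at E14.5 and at 13, 12.9 and 11.5 CPM at P60. It was lower at each later stage without overlap. Mthfd2 fell by 2.25 ± 0.13 (log2, adjusted p = 1.3e-07) and then by 0.70 ± 0.13 (adjusted p = 0.00045), to 12.5% of its E9.5 level. Mthfd1 (ENSMUSG00000021048; chromosome 12, 76255298 to 76319803, plus strand) was at 197, 200 and 191 CPM at E9.5, at 55.9, 53.3 and 51.7 CPM at E14.5 and at 46.7, 49.6 and 46.5 CPM at P60. It fell by 1.96 ± 0.12 (log2, adjusted p = 2.2e-07) in the first step. From E14.5 to P60 its log2 change was -0.04 ± 0.12 with a 95% interval from -0.30 to 0.22 (adjusted p = 0.78), and the sign of this small difference depended on the scaling. The P60 libraries lay slightly below the E14.5 libraries in CPM of the library total, without overlap, and this gap was not kept by the TMM scaling. Mthfd1 kept 24.2% of its E9.5 level at P60.

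Tyms, thymidylate synthase, makes dTMP from dUMP with a carbon unit from folate and leaves dihydrofolate behind. Tyms (ENSMUSG00000025747; chromosome 5, 30058202 to 30073617, minus strand) was at 127, 125 and 123 CPM at E9.5, at 45, 34.2 and 37.7 CPM at E14.5 and at 3.96, 2.12 and 5.11 CPM at P60. The stages did not overlap, and relative to the mean the spread was widest at P60 (3.73 ± 1.51 CPM), where the library with fewest had 75 reads. Tyms fell by 1.76 ± 0.25 (log2, adjusted p = 0.00011) to E14.5 and by a further 3.25 ± 0.28 (adjusted p = 1.5e-06) to P60. From E9.5 to P60 Tyms fell by 5.01 ± 0.29 (32.3-fold, adjusted p = 4e-08), the largest estimate among the 8 genes, and Shmt1 fell by 4.74 ± 0.15 (26.7-fold, adjusted p = 6.7e-10). The difference between Tyms and Shmt1 was not tested. The pseudogene Tyms-ps has no row of its own in the table.

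Slc19a1, the reduced folate carrier of the cell surface, and Slc25a32, the mitochondrial folate transporter, differed far less between stages. Slc19a1 (ENSMUSG00000001436; chromosome 10, 77032241 to 77061002, plus strand) was at 36.3, 40 and 41.1 CPM at E9.5, at 26.1, 28.3 and 25.4 CPM at E14.5 and at 17.3, 20.4 and 19.5 CPM at P60. The stages did not overlap. It fell by 0.64 ± 0.13 (log2, adjusted p = 0.0011) to E14.5 and by 0.99 ± 0.13 over the whole span (adjusted p = 2.8e-05). The step from E14.5 to P60 was -0.34 ± 0.13 (adjusted p = 0.031), and that call was lost in 9 of 17 alternatives. Among them were DESeq2 (-0.26, adjusted p = 0.062) and leaving out the second E14.5 library (-0.31, adjusted p = 0.1), the first P60 library (-0.28, adjusted p = 0.11), or the second or the third E9.5 library.

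Slc25a32 (ENSMUSG00000022299; chromosome 15, 39091231 to 39112716, minus strand) was at 7.49, 9.48 and 9.75 CPM at E9.5, at 6.21, 7.6 and 7.67 CPM at E14.5 and at 6.65, 6.34 and 6.32 CPM at P60. The E14.5 libraries overlapped both other stages, while every P60 library lay below every E9.5 library. Slc25a32 fell by 0.41 ± 0.16 (log2, adjusted p = 0.044) to E14.5 and by 0.42 ± 0.16 (adjusted p = 0.03) to P60. From E14.5 to P60 its change was -0.02 ± 0.16, with a 95% interval from -0.37 to 0.34 (adjusted p = 0.93). Both calls against E9.5 were close to the threshold. The first was lost in 9 of 17 alternatives, among them leaving out the first or the third P60 library, the second or the third E9.5 library or any one E14.5 library, and the second was lost in 8 of 17, among them leaving out the second or the third E9.5 library or any one P60 library.

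**Figure D2:**
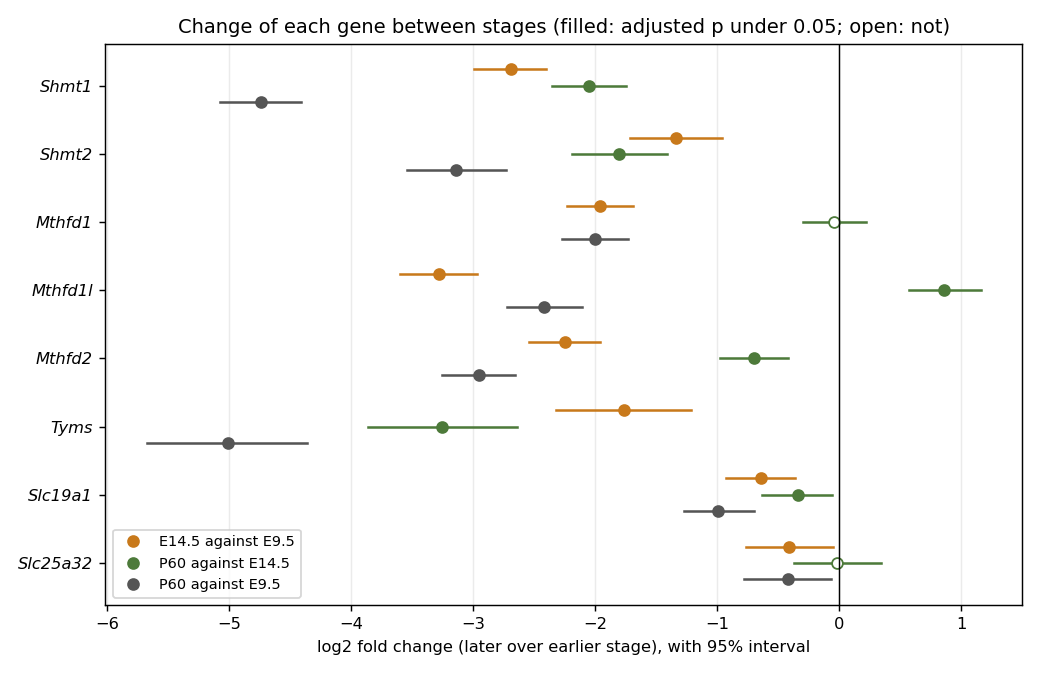
Log2 fold change of each of the 8 genes (rows) for the 2 steps and the whole span (colours), filled where the adjusted p was under 0.05, with the 95% interval as a line and 0 as the vertical line. Mthfd1l is the gene whose P60 against E14.5 interval lies above 0 (0.86), and the intervals of Mthfd1 and Slc25a32 for that step include 0.

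The order of the 8 genes also differed between stages. Levels of different genes were compared per kilobase of exon (CPM per kb). At E9.5 Shmt2 was highest at 58.5 ± 3 CPM per kb, followed by Mthfd1 at 44.2, Mthfd2 at 28.6, Shmt1 at 27.3, Mthfd1l at 23, Tyms at 20.5, Slc19a1 at 8.42 and Slc25a32 at 1.46. Only the neighbours Mthfd2 and Shmt1 overlapped between libraries. At E14.5 Shmt2 (24.6 ± 3.8 CPM per kb) and Mthfd1 (12.1) were still first and second. Tyms (6.4), Mthfd2 (6.4) and Slc19a1 (5.73) came next and overlapped as neighbours, with Shmt1 (4.5), Mthfd1l (2.52) and Slc25a32 (1.18) after them. At P60 Mthfd1 was highest at 10.7 ± 0.389 CPM per kb and Shmt2 second at 6.45. Mthfd1l (4.18), Slc19a1 (4.11) and Mthfd2 (3.58) overlapped as neighbours, Slc25a32 (1.06) overlapped Shmt1 (0.987), and Tyms was lowest at 0.613 ± 0.248. By P60 Mthfd1 had passed Shmt2, and Slc19a1 had passed Shmt1 and Tyms, although neither Mthfd1 nor Slc19a1 rose.

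Ratios within a library compare genes of a pair without regard to how libraries are scaled. For 6 pairs, of which 5 are described, the log2 ratio of (CPM + 1) was compared over the 3 stages by the F statistic in an exact permutation test (1680 assignments, smallest possible p 0.0036, adjusted over the 6 pairs). The mitochondrial to cytosolic pair Shmt2 to Shmt1 had log2 ratios of 0.89, 0.73 and 0.70 in the E9.5 libraries, 2.37, 1.90 and 1.91 in those of E14.5 and 1.97, 2.51 and 1.87 in those of P60. E9.5 lay below both later stages, which overlapped (exact permutation p = 0.025, adjusted p = 0.025). Per length, Shmt2 was 2.15 times Shmt1 at E9.5, 5.51 times at E14.5 and 6.67 times at P60. The P60 minus E9.5 difference in log2 ratio was 1.34, and it was 0.74 with a pseudocount of 5 in place of 1, with Shmt1 at 3.83 CPM at P60. Mthfd1l to Mthfd1 was -0.93, -0.95 and -0.94 in the E9.5 libraries, -2.32, -2.09 and -2.09 in those of E14.5 and -1.41, -1.18 and -1.37 in those of P60, so that all 3 stages were apart (exact permutation p = 0.0036, adjusted p = 0.0054). The mean of this ratio was lowest at E14.5 and only in part back at P60. Mthfd2 to Mthfd1 was lower at each later stage, with means of -0.97 ± 0.02, -1.23 ± 0.07 and -1.85 ± 0.08 (SD, n = 3, exact permutation p = 0.0036, adjusted p = 0.0054).

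Mthfd2l codes for an enzyme of the same mitochondrial step as Mthfd2. The log2 ratio of Mthfd2 to Mthfd2l was 2.21 ± 0.17 at E9.5, -0.50 ± 0.22 at E14.5 and 0.12 ± 0.34 at P60 (SD, n = 3, exact permutation p = 0.0036, adjusted p = 0.0054). The E9.5 libraries lay far above the others, and per length Mthfd2 was 9.19 times Mthfd2l at E9.5 against 1.34 and 2.14 times later. Tk1, thymidine kinase, makes dTMP from thymidine, while Tyms makes it from dUMP. Tyms to Tk1 was 0.36 ± 0.04 at E9.5, 0.38 ± 0.08 at E14.5 and 1.44 ± 0.50 at P60 (exact permutation p = 0.025, adjusted p = 0.025). At P60 both genes were low, and with a pseudocount of 5 in place of 1 the P60 minus E9.5 difference of 1.08 became 0.26 (exact permutation, adjusted p = 0.17). The adjusted p was also above 0.05 without any one E9.5 library and without the second or the third E14.5 library (0.057 to 0.071).

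**Figure D3:**
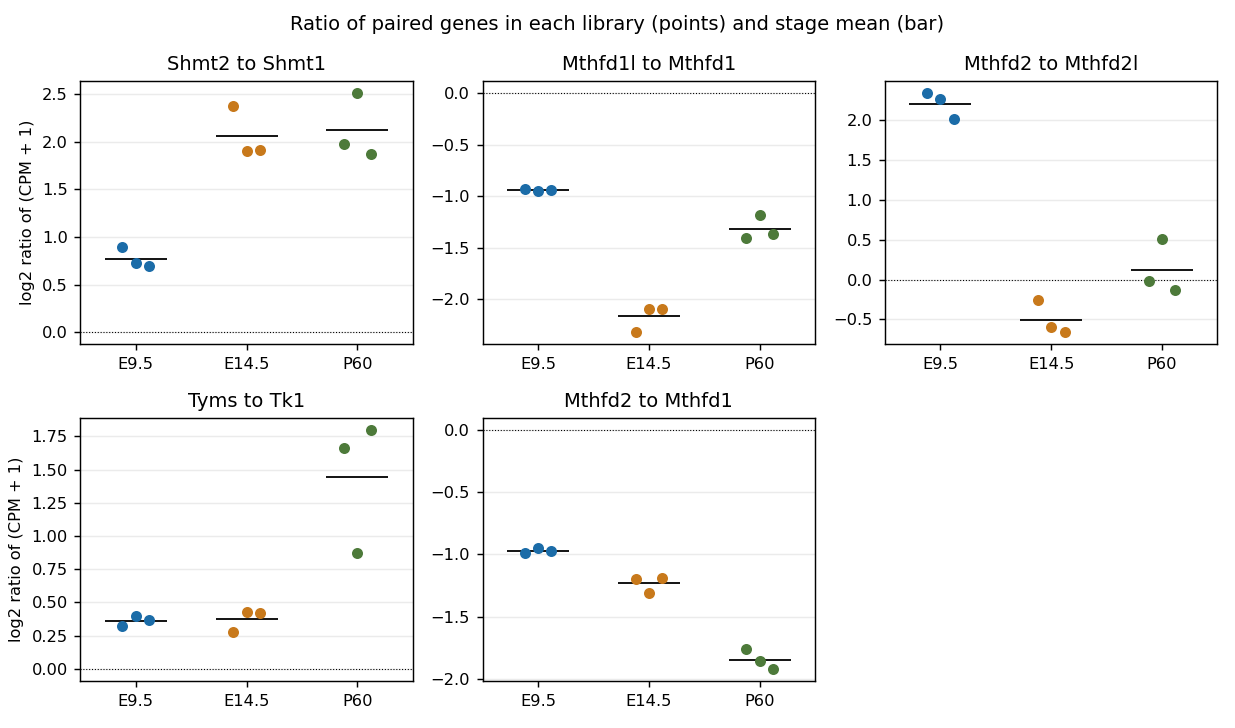
Log2 ratio of (CPM + 1) for 5 gene pairs (panels) in each library (points) of E9.5, E14.5 and P60, with the stage mean as a bar. The dotted line marks equal CPM, not adjusted for exon length. The Shmt2 to Shmt1 ratio is lowest at E9.5, the Mthfd1l to Mthfd1 ratio is lowest at E14.5, and the Tyms to Tk1 ratio is highest at P60.

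Other genes of the pathway and of the pathways it feeds were taken from 8 lists with 74 genes, of which 70 passed the filter on low counts. From E9.5 to E14.5, 15 of the 70 rose and 40 fell (median log2 change -0.86). From E14.5 to P60, 35 rose and 21 fell (median 0.35), and from E9.5 to P60, 26 rose and 32 fell (median -0.13). The background shares of called genes are those given above.

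Among 7 genes of folate import, retention and reduction, 4 rose and 2 fell in the first step, 3 rose and 2 fell in the second, and 3 rose and 2 fell over the whole span. The count of 4 that rose became 2 with median-of-ratios scaling, with DESeq2, and without the first or second E9.5 library or the second or the third E14.5 library. Slc46a1, the proton-coupled folate transporter, rose by 0.72 ± 0.17 in the first step (adjusted p = 0.0039), from 15.5 to 27 CPM. Folr2 also rose there (0.71 ± 0.26, adjusted p = 0.034) from 0.854 to 1.49 CPM, but this call was lost in 7 of 17 alternatives, among them leaving out the first or second E9.5 library or the second or the third E14.5 library. Exons of Gm10602 on the opposite strand cover 63.1% of the Folr2 exon length, so without strand these reads may belong to either gene. Ggh, which trims the glutamate tail of folate, rose from 13.9 to 39.3 CPM between E14.5 and P60 (1.64 ± 0.19, adjusted p = 1.7e-05). Folr1, a folate receptor, rose over the same step by 1.46 ± 0.23 (adjusted p = 0.00018), from 7.06 to 17.7 CPM. Folr1 is abundant in the choroid plexus, and the summed level of 6 choroid plexus markers was 531 to 777 CPM at E14.5 and 1906 to 4412 CPM at P60. Most of that sum was Ttr (517 and 3235 CPM), and the list was split: Kl and Kcnj13 were also higher at P60, Clic6 (25.6 and 25.1 CPM) and Aqp1 (12.5 and 10 CPM) were not called, and Otx2 was lower (57.9 and 11.2 CPM). The part of choroid plexus in the rise of Folr1 was not tested. Qdpr, dihydropteridine reductase, rose by 3.74 ± 0.24 (adjusted p = 1.9e-07) to 446 ± 95.2 CPM at P60.

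Among 9 tested genes of one-carbon interconversion, 3 rose and 3 fell in the first step, 4 and 4 in the second, and 3 and 4 over the whole span. In the second step the number that rose was 2 in place of 4 with library-total scaling and without the first P60 library. Aldh1l1, the cytosolic enzyme that removes carbon units as carbon dioxide and a marker of astrocytes, rose by 5.31 ± 0.26 from E9.5 to E14.5 (adjusted p = 4.7e-08), from 1.18 ± 0.46 to 50.2 ± 3.81 CPM, and was at 68.9 ± 10.2 CPM at P60. The sum of 6 astrocyte markers was 282 to 369 CPM at E9.5, 294 to 397 at E14.5 and 3304 to 3479 at P60. At E9.5 that sum was mostly Gja1, which other cells also express and which was at 318, 96 and 190 CPM. The other 5 markers were far lower than Gja1 at E9.5. Aldoc (3.34, 120 and 1852 CPM) and Slc1a2 (11.8, 141 and 679 CPM) were higher at E14.5 than at E9.5, as Aldh1l1 was. Gfap (0.314 and 2.58 CPM) and Agt (0.0218 and 0.183 CPM) were higher at E14.5 as well, but low at both stages. Aqp4 was not higher there (2.14 and 1.63 CPM, with overlap), and Gja1 was lower. The part of astrocyte number in the Aldh1l1 values was not tested. Its mitochondrial counterpart Aldh1l2 was at 4.19, 45.4 and 3.29 CPM and fell by 3.64 ± 0.26 (adjusted p = 4.6e-07) in the second step. Mtr, methionine synthase, fell at both steps, by 1.96 ± 0.21 (adjusted p = 1.3e-05) and 2.06 ± 0.22 (adjusted p = 9.2e-06), from 54.4 to 15 and 3.23 CPM.

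Serine and glycine feed the pathway with carbon. Of 3 genes of serine synthesis, Phgdh and Psat1 fell in the first step and all 3 rose in the second. Phgdh, the first enzyme of the route, was at 158 ± 12.5, 80 ± 19.5 and 140 ± 25.9 CPM. It fell by 1.07 ± 0.21 (adjusted p = 0.001) and rose by 0.94 ± 0.21 (adjusted p = 0.0018), so its lowest stage was E14.5, as for Mthfd1l. Of 8 genes of glycine cleavage and choline-derived carbon units, 5 fell and 1 rose in the first step, and 1 fell and 5 rose in the second. The first of these counts was 3 without the first E9.5 library and without the second or the third E14.5 library. Gldc, the glycine decarboxylase, fell by 1.64 ± 0.17 (adjusted p = 9.8e-06) and by 0.67 ± 0.17 (adjusted p = 0.0038). Gcsh, the lipoyl carrier of the same complex, fell by 1.61 ± 0.24 (adjusted p = 0.00013) and rose by 1.63 ± 0.24 (adjusted p = 8.5e-05).

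Purines and deoxynucleotides are what the carbon units are spent on in dividing cells. Of 11 genes of de novo purine synthesis, 10 fell and none rose in the first step, with 1 not called. In the second step 4 fell and 3 rose, and over the whole span 8 fell and 1 rose (Adssl1, a muscle form of adenylosuccinate synthase). Ppat, the first enzyme of the route, was at 158 ± 8.74, 21.7 ± 0.564 and 17.8 ± 1.18 CPM and fell by 2.95 ± 0.13 (adjusted p = 2.5e-08) in the first step. Gart and Atic, which carry the folate-dependent steps, fell there by 2.06 ± 0.15 (adjusted p = 7.2e-07) and 2.08 ± 0.16 (adjusted p = 9.8e-07). Gart was at 236 ± 29.9, 60.4 ± 9.31 and 44 ± 2.08 CPM. Of 13 genes of deoxynucleotide supply, 10 fell and 3 rose in the first step, 7 fell and 4 rose in the second, and 9 fell and 3 rose over the whole span. Without the second E14.5 library, 1 in place of 3 rose in the first step. Rrm2, the small subunit of ribonucleotide reductase, was at 564 ± 49.4, 116 ± 11.4 and 2.43 ± 0.278 CPM and fell by 7.81 ± 0.19 over the whole span (adjusted p = 3.7e-10). Tk1 fell by 7.09 ± 0.23 (adjusted p = 8.5e-10), from 96.7 to 0.68 CPM. Rrm2b, the form of the subunit that resting cells use, rose by 2.57 ± 0.22 (adjusted p = 8.9e-07), from 8.01 to 45.9 CPM.

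All 15 genes of a proliferation list fell at both steps, where 30.7% and 39.4% of all genes fell. Their median log2 change was -1.94 in the first step, -5.30 in the second and -7.18 over the whole span. Beside them, the 8 folate genes had medians of -1.86, -0.52 and -2.69. Mki67, a marker of cycling cells, was at 820 ± 110, 228 ± 28.3 and 0.466 ± 0.368 CPM and fell by 10.72 ± 0.44 over the whole span (adjusted p = 3.2e-09). The DNA helicase gene Mcm5 fell by 2.55 ± 0.14 in the first step (adjusted p = 7.5e-08). The share of dividing cells was not measured, and its part in the fall of the 8 genes was not tested.

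**Figure D4:**
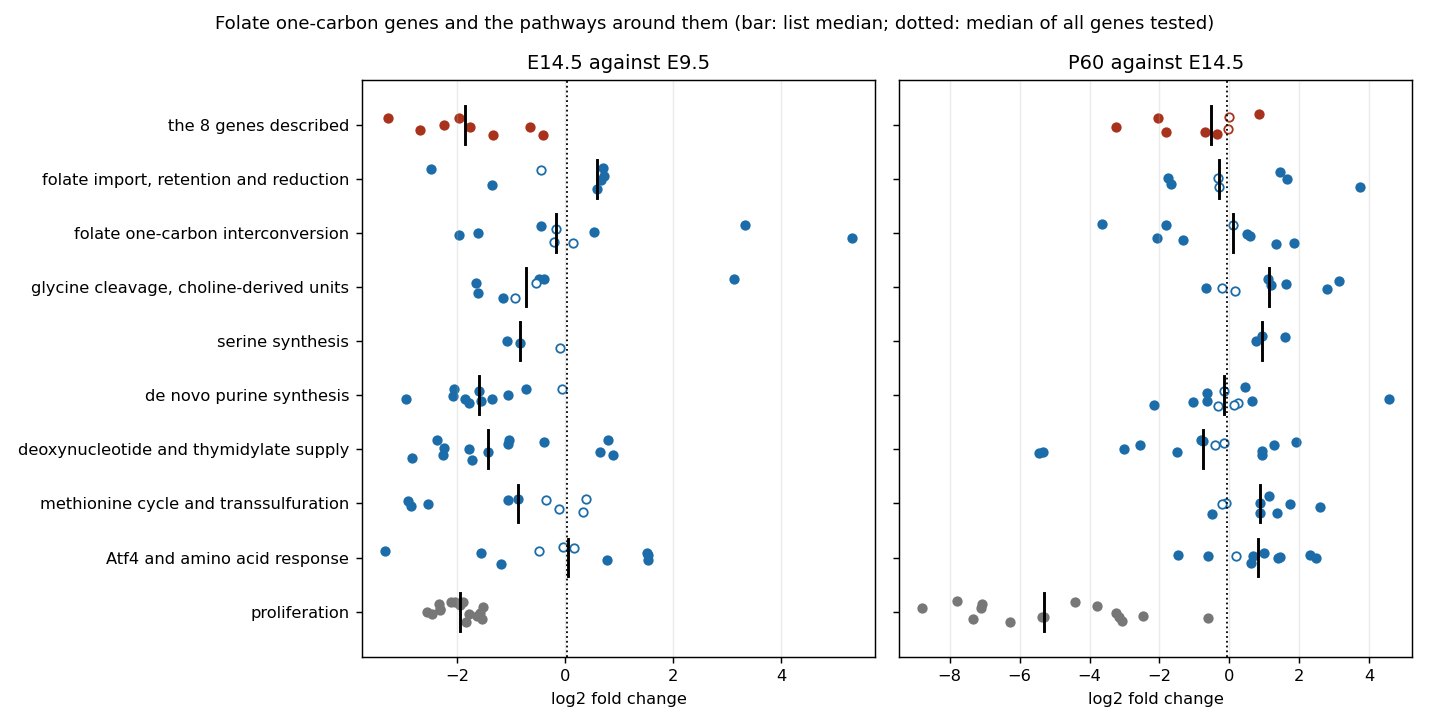
Log2 fold change of each tested gene (points) in the 8 genes and in each pathway list (rows) for E14.5 against E9.5 (left) and P60 against E14.5 (right), filled where the adjusted p was under 0.05, with the list's median as a bar and the median of all genes tested as a dotted line. In the right panel the proliferation list has the lowest median, -5.30, for P60 against E14.5.

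Genes of most like pattern were found for each of the 8 genes among 10349 candidates by the smallest root mean square difference of centred log2 (TMM-scaled CPM + 1) over the 9 libraries. The measure was 0.151 for Tyms and Mcm7, a subunit of the replication helicase, and 0.190 for Tyms and Cks1b, a regulator of cyclin-dependent kinases. It was 0.142 for Shmt1 and Gins2, another replication factor. Mthfd2 was most like Umps (0.091), an enzyme of pyrimidine synthesis, and Ipo5 (0.098), an importin. Shmt2 was most like the nucleoporin gene Nup107 (0.086) and Nectin2 (0.107). Mthfd1 was most like Trmt10a (0.091), and Mthfd1l most like Plcg2 (0.138) and Kank1 (0.210). The flatter transporters had the smallest values, Slc19a1 with Pitpnb (0.070) and Tor1b (0.078), and Slc25a32 with Crk (0.059) and Copb1 (0.070). These values are a description over 9 libraries of 3 stages, and they carry no test.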

How the data were processed

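CNS RNA of 3 libraries each at E9.5, E14.5 and P60 was measured. Per the submitters' processing notes, Trimmomatic 0.36, STAR 2.5.2b and the mm10 build were used by the authors, whose deposited table gives raw read counts per Ensembl gene. The counter, its annotation and its use of strand are not given in the sources used here. Without strand, reads from exons shared with an opposite-strand gene cannot be assigned. Among list genes, such exons made up 63.1% of the exon length of Folr2 (shared with Gm10602), 26.3% of Tymp and 19.7% of Gart. They made up 18.6% of Qdpr, 14.1% of Aldh1l2 and 11% of Aldh1l1. Tymp, of the deoxynucleotide list, also shares 42% of its exon length with Sco2 on the same strand, which strand cannot resolve. Symbols, exon lengths and positions came from GENCODE M21 (GRCm38), which matched 45143 of 45706 identifiers. Counts were filtered with filterByExpr by stage (17971 genes), scaled by TMM and tested with edgeR 4.0.16 in R 4.3.3 (robust quasi-likelihood, stage only, two-sided, Benjamini-Hochberg, threshold 0.05). SE is the absolute log2 change over the root of the F statistic. The biological coefficient of variation was 19.9%, and precision was limited by the number of libraries. The same fitting steps were run on simulated counts of 2 stages at a time, with few changed genes. In the data most genes were called, so this does not test the fit of all libraries. CPM uses the library total, so it does not carry the TMM factors.

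All 8 genes, both genes of each ratio and 2 genes of most like pattern per gene are named. From each list and comparison, up to 3 called genes with the largest change in the direction of most calls were eligible, plus 1 of the opposite sign, if a stage mean reached 1 CPM, and some of these are given. Some genes this rule names, and 1 of the 6 ratios, are not reported here. The genes and lists were chosen with earlier results of these data known. Alternatives were median-of-ratios, upper quartile and library-total scaling, no filter, at least 1 CPM in 3 libraries, DESeq2 1.42.0, fits of 2 stages, a replicate block and leaving out each library.

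The labels number replicates 1 to 3 in each stage without saying what a number shares. Deviations from the stage mean correlated across genes between same-numbered E9.5 and E14.5 libraries at 0.549, 0.328 and 0.393, between E9.5 and P60 at 0.198, 0.208 and -0.211, and between E14.5 and P60 at 0.328, 0.498 and -0.348. Only the first set met the criterion for pairing (all over 0.1), and E9.5 and E14.5 libraries with different numbers reached 0.395.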

Additional observations from a re-analysis of the deposited data

How the results depend on the processing

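Of 408 values of the 8 genes (24 differences under 17 alternatives), 368 kept their direction and their side of the threshold, 26 lost the call and 14 changed sign. The lost calls were those of the transporters described above: Slc19a1 from E14.5 to P60 (9), and Slc25a32 from E9.5 to E14.5 (9) and to P60 (8). The changes of sign were in 2 differences that were not called from E14.5 to P60. The Mthfd1 difference of -0.04 became 0.06 with median-of-ratios scaling, 0.12 with upper quartile scaling, 0.01 without a filter, 0.02 with 2 stages, 0.04 with DESeq2 and -0.09 to 0.01 when leaving out 1 library (0.01 without the first E14.5 library). The Slc25a32 difference of -0.02 became 0.08, 0.15, 0.03, 0.04 and 0.06 in the first 5 of these, 0.00 with at least 1 CPM in 3 libraries, and -0.09 to 0.02 when leaving out 1 library (0.02 and 0.01 without the second and the third at E14.5). Scaling moved the median of all genes in that step from -0.06 to 0.10 (upper quartile) and -0.20 (library totals). The counts of the 8 genes called stayed within 7 to 8, 5 to 6 and 7 to 8 in the 3 comparisons. The replicate block called 8, 6 and 8 of them and changed no call, and with it 56, 56 and 59 of the 70 pathway genes were called. Tyms to Tk1 had a P60 minus E9.5 difference of 1.08, which was 0.26 with a pseudocount of 5 and 0.90 to 1.36 when leaving out 1 library, and the other ratios kept their calls in every alternative, although Shmt2 to Shmt1 moved from 1.34 to 0.74 with a pseudocount of 5. Counts of the other pathway lists that moved by over 1.5 times are given beside each list. In glycine cleavage, 2 in place of 1 fell from E14.5 to P60 with library-total scaling. From E9.5 to P60 the median of the 70 pathway genes, -0.13, became 0.03 with upper quartile scaling and 0.01 without a filter. For one-carbon interconversion the median from E14.5 to P60, 0.09, became -0.05 with library totals, -0.60 with at least 1 CPM in 3 libraries, -0.02 without the first E14.5 library and -0.03 without the third P60 library. For each change named here the cause was not tested. At 2.12 to 5.11 CPM, P60 Tyms is where depth and library spread limit precision most among the 8 genes.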

Other observations

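Carbon units from folate also serve the methionine cycle. Of 9 tested genes of that cycle and of transsulfuration, 5 fell and none rose from E9.5 to E14.5, with 4 not called, and 6 rose and 1 fell from E14.5 to P60. Without the third P60 library, or with library-total scaling, 1 rose in the first step, and with library-total scaling 2 fell in the second. Of all genes tested, 30.7% fell and 34% rose in the first step, and 39.4% fell and 36.7% rose in the second. Ahcy, which clears S-adenosylhomocysteine, fell by 2.54 ± 0.14 on the log2 scale in the first step (edgeR adjusted p = 7.8e-08), from 130 ± 3.08 to 23.8 ± 1.3 CPM. Mtap, of methionine salvage, fell there by 2.86 ± 0.14 (adjusted p = 4e-08), and Cth, which makes cysteine from cystathionine, by 2.90 ± 0.16 (adjusted p = 1e-07). In the second step Mat2b, the regulatory subunit of S-adenosylmethionine synthase, rose by 2.60 ± 0.16 (adjusted p = 1.3e-07) from 47.8 ± 1.59 to 263 ± 43.6 CPM. Cbs, the first enzyme of transsulfuration, rose by 1.73 ± 0.17 (adjusted p = 3.9e-06) to 25 ± 3.15 CPM.

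Mthfd2, Shmt2 and Psat1 are known targets of the transcription factor Atf4, which responds to amino acid shortage. Of 10 genes of an Atf4 and amino acid response list, 4 rose and 3 fell from E9.5 to E14.5, and 7 rose and 2 fell from E14.5 to P60, against the same shares of all genes. Atf4 itself was not called in the first step (-0.48 ± 0.25, edgeR adjusted p = 0.11) and rose in the second (0.68 ± 0.25, adjusted p = 0.026). Asns, asparagine synthetase, rose by 2.47 ± 0.14 in the second step (adjusted p = 8.9e-08), from 34.7 ± 3.67 to 175 ± 4.9 CPM. Chac1, which degrades glutathione, rose there by 2.30 ± 0.23 (adjusted p = 5.7e-06) to 11.2 ± 1.19 CPM. The 2 genes of the list that fell there were Slc7a5 (log2 change -1.46 ± 0.20) and Ddit4 (-0.60 ± 0.14). Over the same step Mthfd2 fell by 0.70 and Shmt2 by 1.80, while Psat1 rose by 0.77 ± 0.16 (adjusted p = 0.0012). Trib3, a repressor of Atf4, fell by 3.33 ± 0.31 in the first step (adjusted p = 3.8e-06), from 5.89 to 0.62 CPM. Asns and Sesn2 also fell in that step, while Chac1, Ddit3, Slc7a11 and Ddit4 rose.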
